A study of Mus musculus with 3 samples.

Results

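The 46 genes described here are 45 receptors for neuropeptides and peptide hormones together with Crhbp, the secreted protein that binds corticotropin-releasing hormone. They were taken as a list of gene symbols by their function, chosen with earlier results of these data known, and each was found once among the 31055 genes of the count matrices. The counts came from nuclei of the olfactory bulb (OB) of 3 male C57Bl/6 mice aged 7 weeks, which form 1 group with 1 single-nucleus RNA sequencing library per mouse. All 3 mice carried retroAAV-CAG-H2B-GFP, a retrogradely transported virus encoding a nuclear green fluorescent protein under the ubiquitous CAG promoter, injected into the piriform cortex and the anterior olfactory nucleus, and GFP-positive nuclei were sorted. There was no untreated group, so the comparisons are between cell types, with the mouse as the replicate. The sort did not keep projection neurons alone: most of the 31703 nuclei belong to inhibitory neuron-like and glia-like clusters.

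Neuropeptides are cut from larger precursors, stored in dense-core vesicles and released to act on nearby or distant cells. Nearly all of their receptors are G protein-coupled: those that couple to Gs raise cyclic AMP, those that couple to Gi lower it and open potassium channels, and those that couple to Gq release calcium from internal stores. The natriuretic peptide receptors are the exception in this list, as Npr1 and Npr2 are themselves guanylyl cyclases. In the OB, mitral and tufted cells carry odour signals to the cortex, and granule and periglomerular cells, the local inhibitory neurons, produce many of the peptides.

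Mice 1, 2 and 3 gave 5845, 21105 and 4753 nuclei with 58526996, 213891496 and 62929479 UMIs (unique molecular identifiers, or captured RNA molecules). The deposited clusters were named here from marker genes. Of 22 clusters, 10 were inhibitory neuron-like, 5 projection neuron-like and 5 glia-like. Cluster 18 carried endothelial markers but was led by fibroblast genes and stayed unnamed, and cluster 21, with 9 nuclei in mouse 1, was not tested. The projection neurons had been subclustered, and 7 of the 10 subclusters were named M1-, M2- and M3-like (mitral) and T1-, ET1-, ET2- and ET4-like (tufted and external tufted). Levels are given as CPM, the UMIs of a gene per 1000000 UMIs of all nuclei of a group in a mouse. The summed libraries held 61554 to 44969722 UMIs for clusters and 161593 to 16961469 for types. The smallest of these, M1 of mouse 1, comes from 14 nuclei. Transcripts of inhibitory neurons were present in every group: 7 inhibitory markers, none of them at 0 anywhere, summed to 2746 to 6319 CPM in the inhibitory neuron-like clusters, 968 to 1711 CPM in the glia-like clusters and 122 to 539 CPM in the 7 types. Subclusters 2, 8 and 9, outside the 7 types, summed to 1872, 328 and 1528 CPM. Their nuclei are part of the projection neuron-like clusters, which summed to 329 to 583 CPM. Of the 943 nuclei of subcluster 2, 772 came from mouse 2. Within each type the sum was highest in mouse 2. The glia-like level of a member is therefore given beside low values. Since clusters had been drawn from the same nuclei, p-values between them do not allow for that choice. They rest on the spread between libraries of a group, pooled over 21 type or 63 cluster libraries of the 3 mice. The fit took these libraries as independent, although each mouse gave 1 to every group. A small p-value therefore does not measure the spread between 3 animals alone.

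UMI numbers set which members could be followed. Of the 46 members, 8 had fewer than 50 UMIs over all nuclei and are not described by cluster: Sstr4 (37 UMIs), Mc3r (2), Ghsr (3), Hcrtr1 (23), Cckar (2), Avpr1a (42), Mc4r (13) and Galr1 (21), receptors for somatostatin, melanocortins, ghrelin, orexin, cholecystokinin, vasopressin and galanin. A further 10 had more UMIs but stayed under 10 CPM in every cluster and subcluster tested: Grpr (81 UMIs), Npy2r (54), Rxfp2 (151), Calcr (69), Crhr2 (135), Nmbr (599), Npy5r (1882), Sstr1 (142), Rxfp3 (121) and Sstr3 (1033). Low counts in nuclei do not show that a receptor is absent from a cell. The other 28 members are described by cluster, from Oprk1 with 322 UMIs to Oprm1 with 44375, and Npy5r where it was called. Because captured UMIs depend on gene length and priming, levels are compared between groups for a gene and not between genes.

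Every member that could be tested across clusters differed between them. Of the 46 members, 32 passed the filter on low counts, and edgeR's quasi-likelihood test found a difference among the 21 clusters for 32 of these 32. The same test called 86.0% of all 16622 genes, so a call of this kind was the rule for any gene. Against the mean of the other clusters, the 32 members gave 672 gene and cluster pairs, of which 129 were higher and 56 lower at an adjusted p under 0.05 and a log2 fold change beyond 1. Over all genes 9.28% of pairs were higher and 5.63% lower. The median log2 fold change of the member pairs was -0.11. Members peaked in different places. Of the 28 described, 20 had their highest mean in an inhibitory neuron-like cluster and 4 in a projection neuron-like one. Of the 21 clusters, 10 are inhibitory neuron-like and 5 projection neuron-like. The same share was not computed for all genes, so the count is a description.

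**Figure D1:**
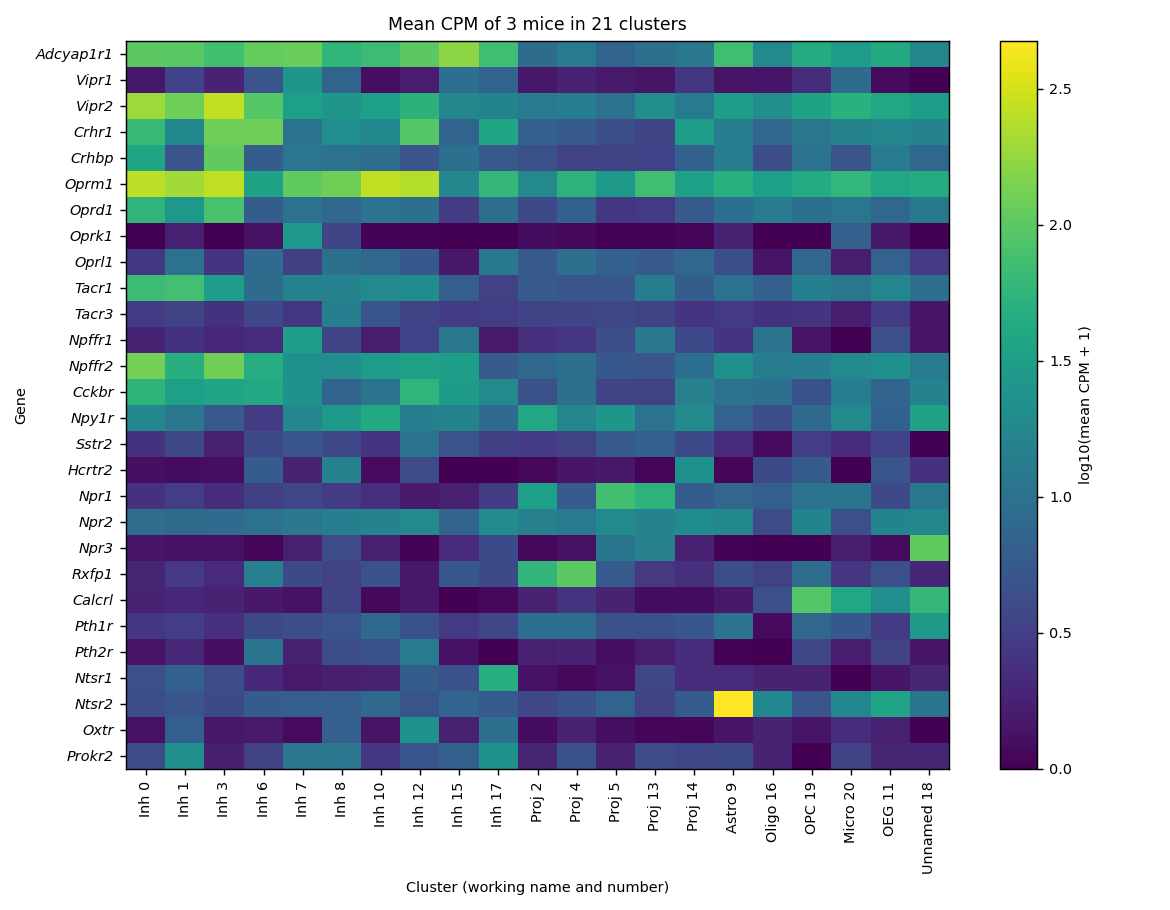
Mean level of 28 members (vertical axis) in 21 clusters (horizontal axis, with the working name and number of each cluster; Inh, inhibitory neuron-like; Proj, projection neuron-like; Astro, astrocyte-like; Oligo, oligodendrocyte-like; OPC, oligodendrocyte precursor-like; Micro, microglia-like; OEG, olfactory ensheathing glia-like), as log10 of the mean CPM of 3 mice plus 1. The brightest cell is Ntsr2 in astrocyte-like cluster 9 at 473 CPM, and Npr1 and Rxfp1 are brightest in projection neuron-like clusters.

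The comparison of projection neurons with inhibitory neurons separated the members into unequal groups. Nuclei of the 7 types were summed per mouse, and nuclei of the 10 inhibitory neuron-like clusters likewise. The filter on low counts left 35 members. Of them, 4 were higher in projection neurons, where 15.4% of 18088 genes were, and 19 were lower, where 13.9% of genes were. The median log2 fold change was -1.87 for the 35 members and 0.01 for all genes. Members low in both sums had been removed by the filter, so these shares are not shares of the 46.

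The 4 that were higher are Npr1, Rxfp1, Npr3 and Pth1r. Npr1, the cyclase receptor for atrial and B-type natriuretic peptides, stood at 45.6, 33.8 and 44.3 CPM in projection neurons of mice 1, 2 and 3, and at 1.45, 1.76 and 1.67 CPM in inhibitory neurons. The groups lie far apart, and the log2 fold change was 4.70 ± 0.17, the error being the SE (adjusted p = 1.27e-06). Rxfp1, the relaxin receptor, was at 59.1, 40.4 and 32.7 CPM against 3.13, 1.44 and 3.51 CPM (log2 fold change 4.20 ± 0.36, adjusted p = 3.96e-05). Npr3, which binds natriuretic peptides and clears them, was at 5.16, 6.32 and 4.79 CPM against 0.908, 0.512 and 0.710 CPM (3.09 ± 0.25, adjusted p = 2.72e-05). Pth1r, a receptor for parathyroid hormone and its related peptide, was the least different of the 4, at 7.44, 6.94 and 5.17 CPM against 2.05, 2.43 and 2.48 CPM (1.55 ± 0.19, adjusted p = 0.000262). None of the 4 overlapped between the sums, but they had been picked by their call. Npr2, Npy1r and Tacr3, which were not called, did not overlap either, nor did Grpr, Npy2r and Hcrtr1, which the filter had removed. The share of all genes without overlap was not computed, so the lack of overlap is a description and sets no member apart.

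Among the 19 lower members, 5 had the largest differences. Npffr2, a Gi-coupled receptor for neuropeptide FF, measured 69.6, 84.3 and 83.7 CPM in inhibitory neurons and 1.20, 3.13 and 1.51 CPM in projection neurons, and fell by 5.18 ± 0.32 on the log2 scale (adjusted p = 7.7e-06). Vipr2, a Gs-coupled receptor for vasoactive intestinal peptide (VIP) and PACAP, was at 120, 161 and 141 CPM against 2.15, 8.46 and 3.20 CPM, and fell by 4.79 ± 0.47 (adjusted p = 7.46e-05). Oprd1, the delta opioid receptor, was at 40.9, 35.8 and 33.1 CPM against 1.33, 2.22 and 0.880 CPM (fell by 4.47 ± 0.27, adjusted p = 7.65e-06). Adcyap1r1, the PACAP receptor PAC1, was at 96.8, 92.6 and 87.3 CPM against 2.71, 7.65 and 3.24 CPM (fell by 4.21 ± 0.36, adjusted p = 3.82e-05). Oprk1, the kappa opioid receptor, was at only 1.31, 1.58 and 1.67 CPM in the inhibitory sum, where cluster 7 gave 209 of 290 UMIs, against 0.0430, 0.135 and 0.0352 CPM (fell by 4.06 ± 0.41, adjusted p = 8.83e-05). All 5 were highest in mouse 2 among the projection sums, as were the inhibitory markers in each type, and the part of such RNA in these low levels was not tested. The other 14 lower members fell by 1.47 (Pth2r) to 3.99 (Crhr1). The other 12 did not pass both thresholds, among them Npr2, Ntsr2, Npffr1, Calcrl, Oprl1 and Hcrtr2. For Hcrtr2 the sums hide clusters at both ends of its range, described with the orexin receptors.

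**Figure D2:**
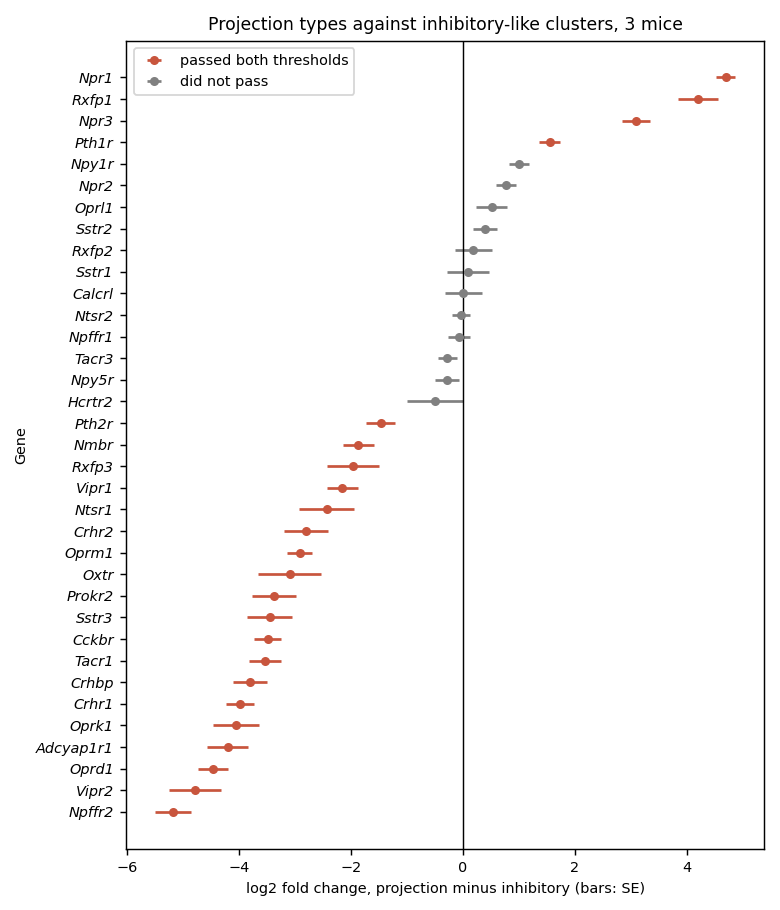
Log2 fold change of 35 members, projection minus inhibitory sums (horizontal axis; points, fitted values; bars, SE; 3 mice), with members on the vertical axis and those passing both thresholds in red. On the right of 0 lie 4 red points, led by Npr1 at 4.70, and 19 lie left of 0, down to Npffr2 at -5.18.

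Among the receptors of the PACAP, VIP and corticotropin-releasing hormone (CRH) family, which signal through Gs, the inhibitory clusters took different members. Vipr2 was highest in cluster 3, at 232, 292 and 278 CPM, and next in cluster 0, at 169, 208 and 203 CPM. No mouse of cluster 0 reached the lowest of cluster 3. After each nucleus was thinned to 2000 UMIs, 37.9% of cluster 3 nuclei held a Vipr2 UMI (80.3% unthinned), against 3.58% of microglia-like nuclei (7.73% unthinned), taken as the comparison class, and the source of Vipr2 UMIs in that class was not tested. The median depth was 9736.5 UMIs in cluster 3 and 3405 in the microglia-like cluster. Glia-like clusters as a whole measured 20.1 to 50.6 CPM of Vipr2. Vipr1, the other VIP receptor, was instead highest in cluster 7, at 33.6, 18.3 and 23.6 CPM, and no other cluster averaged above 8.56 CPM (log2 fold change 4.33 ± 0.34, adjusted p = 2.1e-15). Adcyap1r1 was broad: cluster 15 was highest at 178, 150 and 162 CPM (1.97 ± 0.26, adjusted p = 1.8e-08), the next was cluster 7 at 116 CPM, and glia-like clusters spanned 17.7 to 70.0 CPM.

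Crhr1, the main CRH receptor of the brain, had equal means of 120 CPM in clusters 3 and 6. Cluster 6 measured 124, 103 and 132 CPM (2.79 ± 0.23, adjusted p = 2.27e-15), cluster 3 measured 130, 106 and 124 CPM, and these overlap. Crhbp, which captures CRH outside the cell, was also highest in cluster 3, at 152, 77.6 and 82.8 CPM, where it is among the 10 leading genes of the cluster, so that its level there is a description. Cluster 0 followed at 43.7, 27.3 and 39.9 CPM. In cluster 6, which matched cluster 3 in Crhr1, Crhbp measured 5.34, 5.64 and 4.67 CPM, within the 3.27 to 12.3 CPM of the glia-like clusters.

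Opioid receptors, which couple to Gi, had different highest clusters. Oprm1, the mu receptor, was at 245, 255 and 306 CPM in cluster 10 (2.05 ± 0.26, adjusted p = 9.87e-09). Clusters 3 and 0, at means of 262 and 255 CPM, were not separate from it. Cluster 15 was lowest of all 21, at a mean of 16.4 CPM, below the 31.2 to 57.5 CPM of the glia-like clusters. Oprd1, the delta receptor, was highest in cluster 3 at 88.7, 71.5 and 76.7 CPM (3.38 ± 0.23, adjusted p = 4.94e-18) and next in cluster 0 at 66.7, 49.6 and 48.1 CPM (2.78 ± 0.23, adjusted p = 1.44e-14). Every mouse of cluster 3 lay above every mouse of cluster 0. Oprk1 measured 26.6, 26.8 and 24.3 CPM in cluster 7 and had no UMI at all in 5 of the other 20 clusters. The next neuron cluster, cluster 8, reached 1.99, 3.21 and 2.57 CPM and was called higher (3.95 ± 0.51, adjusted p = 3.28e-08), as were clusters 1 and 9, whose calls were lost with DESeq2, and the 5.42 CPM of the microglia-like cluster rests on 1 UMI. For cluster 7 the fit gave a log2 fold change of 7.30 ± 0.34 (adjusted p = 1.49e-22), a model value that is no bound where groups are at 0. Oprk1 passed the filter on low counts through cluster 7, so its call there was favoured in advance and is a description. Oprl1, the nociceptin receptor, was low throughout, highest in cluster 17 at 17.5, 5.83 and 9.63 CPM and next in cluster 1 at a mean of 9.26 CPM. It was called higher in inhibitory clusters 1, 8 and 17 and projection clusters 4 and 13, and lower in inhibitory clusters 0 and 3. Of these calls that of cluster 1 alone held with DESeq2, with at least 1500 genes per nucleus and without each mouse.

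Tachykinin and neuropeptide FF receptors formed pairs with separate peaks. Tacr1, the Gq-coupled substance P receptor, stood at 48.6, 82.1 and 92.1 CPM in cluster 1 (2.80 ± 0.26, adjusted p = 7.21e-13). Cluster 0, where Tacr1 is a leading gene, measured 57.5, 77.1 and 68.2 CPM and overlapped with it. Tacr3, the neurokinin B receptor, peaked elsewhere, in cluster 8, at 9.44, 20.6 and 10.0 CPM (2.79 ± 0.23, adjusted p = 4.17e-15), with every other cluster at a mean of 4.21 CPM or less. Npffr2, a leading gene of cluster 0, was at 115, 126 and 152 CPM there and at 129, 131 and 112 CPM in cluster 3. Npffr1 was highest in cluster 7, at 41.6, 19.7 and 29.3 CPM, and was called higher in cluster 15 at 4.98, 11.4 and 16.2 CPM (2.69 ± 0.51, adjusted p = 4.38e-05). It was called higher as well in projection clusters 5 (lost with DESeq2 and without mouse 2) and 13 (lost without mouse 1).

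**Figure D3:**
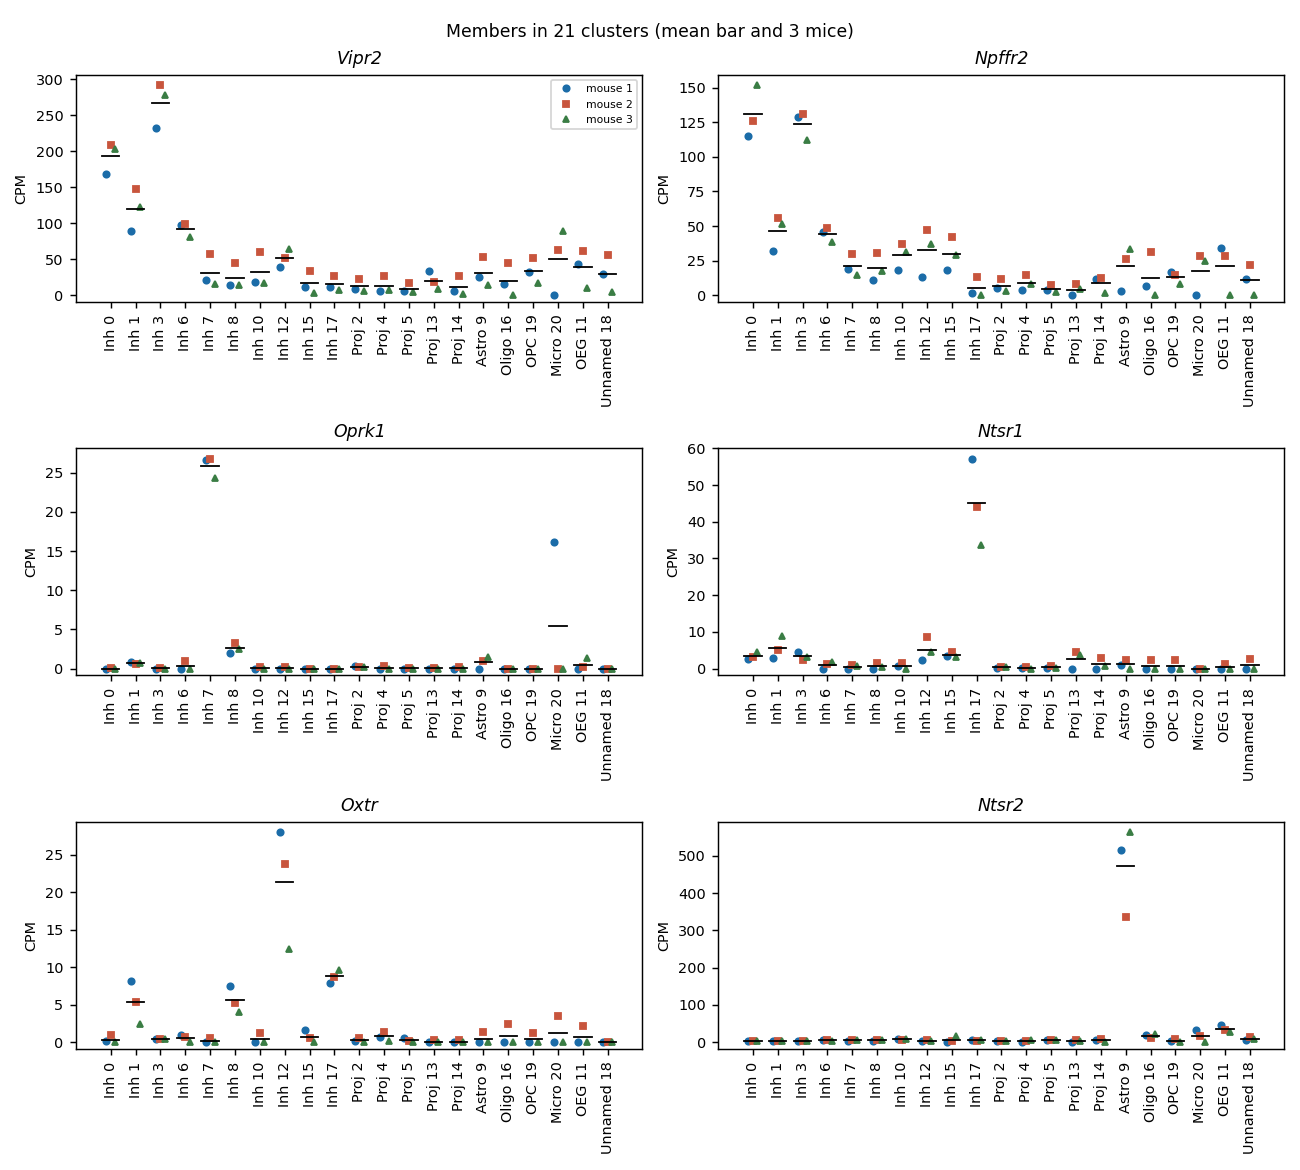
CPM (vertical axes) of 6 members in 21 clusters (horizontal axes, abbreviated as in the map of mean levels), with 1 point per mouse and a bar at the mean of 3 mice. Oprk1, Ntsr1, Oxtr and Ntsr2 each stand out in 1 cluster, at means of 25.9, 45, 21.4 and 473 CPM, while Vipr2 and Npffr2 are spread over several, and in most projection and glia-like clusters mouse 2 is at or near the top for both.

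Of the receptors for cholecystokinin, neuropeptide Y and somatostatin, Cckbr was called higher in 6 clusters (5 with the mouse as a block), Npy1r in 5 and Sstr2 in 2. Cckbr, the Gq-coupled CCK receptor of the brain, had means of 55.4 CPM in cluster 12 and 53.5 CPM in cluster 0, which overlapped by mouse. Npy1r, a Gi-coupled neuropeptide Y receptor, was found in both classes of neuron. Inhibitory cluster 10 measured 42.1, 34.8 and 46.4 CPM (1.92 ± 0.22, adjusted p = 5.31e-10), projection cluster 2 measured 42.4, 33.5 and 38.8 CPM, and projection cluster 5 measured 21.2, 24.1 and 30.1 CPM (1.38 ± 0.19, adjusted p = 1.69e-08). Clusters 10 and 2 cannot be ordered at this spread. Npy5r, under 10 CPM in every cluster tested, was called higher in clusters 0, 1, 2, 3, 8, 10 and 12. Its log2 fold changes there ran from 1.24 in cluster 12 to 1.78 in cluster 2. It was called lower in oligodendrocyte-like cluster 16 (-7.24 ± 2.12 in the fit, adjusted p = 0.0074). Sstr2, a Gi-coupled somatostatin receptor, had its highest cluster mean in cluster 12, at 9.80 CPM.

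Receptors for orexin, oxytocin and prokineticin did not average above 22.5 CPM in any cluster. Hcrtr2, the second orexin receptor, was highest in projection cluster 14, at 20.8, 14.1 and 28.9 CPM (5.28 ± 0.43, adjusted p = 8.96e-15), and next in inhibitory cluster 8, at 12.9, 7.71 and 21.5 CPM (4.60 ± 0.41, adjusted p = 3.67e-13). These overlap, and 3 other clusters had no Hcrtr2 UMI. It was also called higher in clusters 6, 11 and 16, where the call of cluster 11 was lost without mouse 1. That of cluster 16 rests on UMIs of mouse 2 alone and changed sign without that mouse. Oxtr, the oxytocin receptor, measured 28.0, 23.8 and 12.4 CPM in cluster 12 (4.87 ± 0.39, adjusted p = 8.9e-15), above cluster 17 at 7.94, 8.74 and 9.63 CPM in each mouse. Clusters 17, 1 and 8 were called as well. Prokr2, the receptor for prokineticins that is known for its role in forming the OB, was shared by cluster 17, at 31.8, 23.7 and 12 CPM (3.54 ± 0.41, adjusted p = 7.43e-10), and cluster 1, at 30.8, 15.3 and 15.2 CPM (3.36 ± 0.29, adjusted p = 9.59e-14), and was called too in clusters 7 and 8, at means of 10.5 and 10.3 CPM.

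Ntsr1 and Ntsr2, the neurotensin receptors, peaked in a small inhibitory neuron-like cluster and in the astrocyte-like cluster. Ntsr1, the high-affinity receptor, stood at 57.2, 44.1 and 33.7 CPM in cluster 17 (5.24 ± 0.34, adjusted p = 4.02e-19), and the next, cluster 1, averaged 5.63 CPM. Cluster 17 holds 156 Ntsr1 UMIs and cluster 1 holds 223. Ntsr1 was also called higher in clusters 0, 1, 3, 12 and 13, and of these calls that of cluster 1 alone held with DESeq2 and without each mouse. Cluster 17 holds only 190 nuclei, of which 9.54% had an Ntsr1 UMI after thinning and 42.9% before. Ntsr2, the low-affinity receptor, is a leading gene of astrocyte-like cluster 9, where it measured 517, 337 and 564 CPM, and 59.2% of thinned nuclei held a UMI. Its level in the olfactory ensheathing glia-like cluster 11 was 46.4, 31.5 and 27.9 CPM (2.28 ± 0.26, adjusted p = 4.93e-11), far under cluster 9. Within the inhibitory neuron-like clusters Ntsr2 did not pass the test of any difference.

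Parathyroid hormone receptors had low levels. Pth2r was highest in clusters 12 and 6, at 10.1, 8.79 and 15.5 CPM (3.99 ± 0.41, adjusted p = 4.1e-11) and 9.73, 9.01 and 10.6 CPM, which overlap. Pth1r was highest in unnamed cluster 18, at 35.7, 12.4 and 33.4 CPM, and no other cluster tested averaged above 9.44 CPM.

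Differences among the 10 inhibitory neuron-like clusters were found for 28 of 32 members, where 52.7% of all genes were called. Npr1, Npr2, Ntsr2 and Pth1r did not pass, and Npr2 passed with the mouse as a block, with DESeq2 and with RLE size factors. The call for Adcyap1r1 (adjusted p = 0.0334) was lost with DESeq2 and without mouse 1 or mouse 3. By highest mean, cluster 7 led in Oprk1, Vipr1 and Npffr1, cluster 3 in Vipr2, Crhbp and Oprd1, cluster 8 in Tacr3, cluster 12 in Oxtr and Pth2r, and cluster 17 in Ntsr1 and Prokr2.

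In glia-like clusters, 2 of the 32 tested members were higher than in neurons and 3 lower, beside 9.40% and 8.10% of all genes. The median log2 fold change was -0.48 for the members and -0.09 for all genes. Calcrl, the receptor that becomes a CGRP or adrenomedullin receptor with its RAMP partners, rose by a log2 fold change of 3.91 ± 0.65 (adjusted p = 1.05e-06). It had its highest mean in oligodendrocyte precursor-like cluster 19, at 113, 84.4 and 81.5 CPM (6.47 ± 0.33, adjusted p = 8.45e-24). Unnamed cluster 18 followed at 23.8, 86.9 and 66.9 CPM (5.79 ± 0.37, adjusted p = 1.37e-19), the microglia-like cluster 20 at 65.0, 33.8 and 15.0 CPM (4.67 ± 0.54, adjusted p = 4.44e-10) and cluster 11 at 19.5, 13.8 and 25.2 CPM (4.15 ± 0.37, adjusted p = 2.07e-14). Astrocyte-like cluster 9, at a mean of 0.537 CPM, and oligodendrocyte-like cluster 16, at 3.45 CPM from 2 UMIs, were not called. Cluster 19 has 10 nuclei in mouse 3, the microglia-like cluster has 26 Calcrl UMIs in all, and mouse 2 of cluster 18 lies above mice 2 and 3 of cluster 19, so that neighbours in this order overlap. Ntsr2 rose by 2.49 ± 0.31 (adjusted p = 7.23e-10), through the astrocyte-like cluster above all. Npy5r fell by 2.76 ± 0.52 (adjusted p = 1.12e-05), Npy1r by 1.25 ± 0.23 (adjusted p = 7.79e-06) and Oprl1 by 1.19 ± 0.41 (adjusted p = 0.0136). With the mouse as a block, Prokr2 was called lower too. Npy1r came to -0.99 without mouse 3, and Oprl1 lost its call with DESeq2 and without mouse 1 or mouse 2. Members abundant in inhibitory neuron-like clusters 0 and 3, such as Npffr2 at 12.5 to 20.8 CPM and Oprd1 at 7.10 to 11.4 CPM, were present in all glia-like clusters beside the inhibitory markers given above. Their source was not tested.

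Turning to the projection neurons, 24 members passed the filter for the 7 types and 21 of them differed between types, where 64.8% of 14696 genes did. Crhbp, Oprl1 and Tacr3 did not pass. With the mouse as a block, Crhbp and Oprl1 passed and 23 of 24 differed. Each type against the mean of the other 6 gave 168 pairs, of which 34 were higher and 23 lower, beside 6.89% and 5.28% of all pairs. The median was -0.21. By type, the members called higher numbered 4 in T1 (6.68% of all genes were), 4 in M2 (6.83%), 3 in ET4 (8.72%), 3 in ET1 (5.17%), 6 in M1 (7.81%), 8 in ET2 (7.64%) and 6 in M3 (5.37%).

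Of the natriuretic peptide receptors, Npr1 was called higher in all 3 mitral types and in tufted type T1, and Npr3 in M1 and M2. Npr1 (chr3:90450591-90465866, minus strand, GRCm38) measured 78.4, 73.3 and 78.2 CPM in M2 (2.73 ± 0.16, adjusted p = 1.65e-12). In M1 it measured 92.8, 40.6 and 55.8 CPM, in M3 43.6, 28.2 and 64.4 CPM (1.40 ± 0.27, adjusted p = 0.000391, lost without mouse 3 and with at least 1500 genes per nucleus) and in T1 37.5, 35.7 and 31.7 CPM (1.38 ± 0.18, adjusted p = 8.08e-07). M1 overlaps with both M2 and M3, M3 lies below M2 in every mouse, and ET4 at 2.39, 1.54 and 0 CPM lies below all 3. After thinning, 13.6% of M2 nuclei held an Npr1 UMI (66.8% before), against 1.10% of microglia-like nuclei (4.40% before), with median depths of 20781 and 3405 UMIs. Npr3 (chr15:11839896-11907287, minus strand) was at 13.2, 8.51 and 8.98 CPM in M2 (3.65 ± 0.40, adjusted p = 7.65e-08) and at 0, 28.0 and 13.5 CPM in M1 (4.60 ± 0.40, adjusted p = 1.47e-09). The 0 belongs to the library of 14 nuclei. In M3 it was not called (0.72 ± 0.99, adjusted p = 0.666). No tufted type averaged above 1 CPM of Npr3, and T1 was called lower (-3.36 ± 0.86, adjusted p = 0.00344), a call lost without mouse 1 or mouse 2. In the clusters, Npr1 was highest in cluster 5 at 76.5, 64.9 and 74.5 CPM (4.46 ± 0.15, adjusted p = 2.23e-32), then in cluster 13 at 64.0, 40.5 and 55.2 CPM (3.84 ± 0.18, adjusted p = 1.21e-25) and cluster 2 at 33.9, 28.8 and 30.2 CPM (3.17 ± 0.16, adjusted p = 2.14e-24). Npr3 reached 0, 27.3 and 13.5 CPM in cluster 13 (5.12 ± 0.39, adjusted p = 3.02e-16), but its highest level lay outside the neurons, in unnamed cluster 18, at 173, 102 and 38.2 CPM (7.21 ± 0.45, adjusted p = 9.16e-20). Npr2, the cyclase for C-type natriuretic peptide, ranged from 3.13 to 19.0 CPM across clusters and was called in 1 of them, lower in oligodendrocyte-like cluster 16 (-1.84 ± 0.57, adjusted p = 0.0108, lost without mouse 2). It was not called in any of the 7 types.

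Since Npr1 and Npr3 were both called in M1 and M2, their RefSeq windows of 300 bases on GRCm38.p6 are shown, 5′ to 3′ on the strand of the gene. The windows lie at chr3:90465817-90466116 and chr15:11907322-11907621. For Npr1 the window runs from 250 bases before to 50 bases after the gene start given above. That of Npr3 lies wholly before the gene start given above. Capitals mark GC boxes (GGGCGG or its reverse complement CCGCCC).
Npr1: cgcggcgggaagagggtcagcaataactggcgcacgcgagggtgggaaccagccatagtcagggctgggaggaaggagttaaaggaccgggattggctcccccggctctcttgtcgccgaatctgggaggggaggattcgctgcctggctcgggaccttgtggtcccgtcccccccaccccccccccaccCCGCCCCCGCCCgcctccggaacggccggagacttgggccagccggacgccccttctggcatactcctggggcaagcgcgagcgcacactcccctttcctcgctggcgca
Npr3: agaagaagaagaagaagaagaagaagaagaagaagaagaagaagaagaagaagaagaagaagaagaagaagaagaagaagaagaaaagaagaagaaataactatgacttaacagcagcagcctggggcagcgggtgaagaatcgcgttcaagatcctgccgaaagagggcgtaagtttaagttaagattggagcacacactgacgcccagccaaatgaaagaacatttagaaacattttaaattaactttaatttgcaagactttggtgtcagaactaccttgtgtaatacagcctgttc
The Npr1 window holds 2 GC boxes and that of Npr3 none, and the Npr3 window opens with a run of aag repeats. A GC box was found in 15 of the 40 members that have a RefSeq window, where 35.9% of all 27025 windows hold one. Cckar, Galr1, Mc4r, Oprk1, Rxfp1 and Sstr1 have no window in the table used. A T-box core (GGTGTGA, either strand) was searched because Tbx21 and Eomes, T-box factors, mark projection neurons. It was found in Cckbr alone, beside 3.96% of all windows, and so not in Npr1 or Npr3. An Ebf palindrome (TCCC, any 2 bases, then GGGA), searched as Ebf factors mark M1 and ET2, was found in 0 of 40 windows and in 0.914% of all windows. TAATTA, a homeodomain core, was found in Pth1r alone (5.31% of all windows), and TATAAA on either strand in 5 members (14.2%). A match is a description of letters, and no match says only that they are not in the window.

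In M3, 6 members were called higher: Npffr1, Sstr2, Vipr2, Crhr1, Npr1 and Oprm1. Npffr1 stood at 30.9, 27.4 and 29.0 CPM in M3 (3.80 ± 0.28, adjusted p = 2.39e-10), with every other type at a mean of 3.88 CPM or less. Sstr2 was at 32.7, 18.5 and 11.3 CPM (2.82 ± 0.40, adjusted p = 9.45e-06). M1 had the next mean, at 18.6, 2.16 and 2.59 CPM, but only through mouse 1, the library of 14 nuclei. In the fit M1 was not called for Sstr2 (-0.25 ± 0.45, adjusted p = 0.736). Vipr2 was at 39.9, 33.5 and 20.9 CPM (2.50 ± 0.54, adjusted p = 0.00131). That level is within the 20.1 to 50.6 CPM of the glia-like clusters. The inhibitory markers summed to 375 CPM in M3, and the part of such RNA in its Vipr2 level was not tested. M3 is the shallowest type, with a median of 5915 UMIs per nucleus and 326 nuclei, and its Npffr1, Sstr2 and Vipr2 values rest on 66, 46 and 73 UMIs. Crhr1, at 5.45, 23.0 and 3.22 CPM, lost its call without mouse 2. Tacr3 and Hcrtr2 had no UMI in M3.

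In M1, Ntsr1 was at 0, 4.43 and 3.79 CPM, from 56 UMIs (4.25 ± 0.57 in the fit, with ET1 at 0 UMIs, adjusted p = 3.08e-06). Tacr1 was at 12.4, 18.7 and 8.77 CPM (2.87 ± 0.37, adjusted p = 1.16e-06), above the highest mean of the other types, 4.70 CPM in ET2. The glia-like clusters measured 5.61 to 15.9 CPM of Tacr1, a range that holds the M1 mean of 13.3 CPM. In M2, Tacr3 was called at 2.62, 2.42 and 3.35 CPM (1.53 ± 0.48, adjusted p = 0.0148), but the call was lost with DESeq2 and without mouse 1 or mouse 3. M1 averaged 3.19 CPM of Tacr3, from 6.19, 1.20 and 2.19 CPM, of which the 6.19 CPM rests on 1 UMI.

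**Figure D4:**
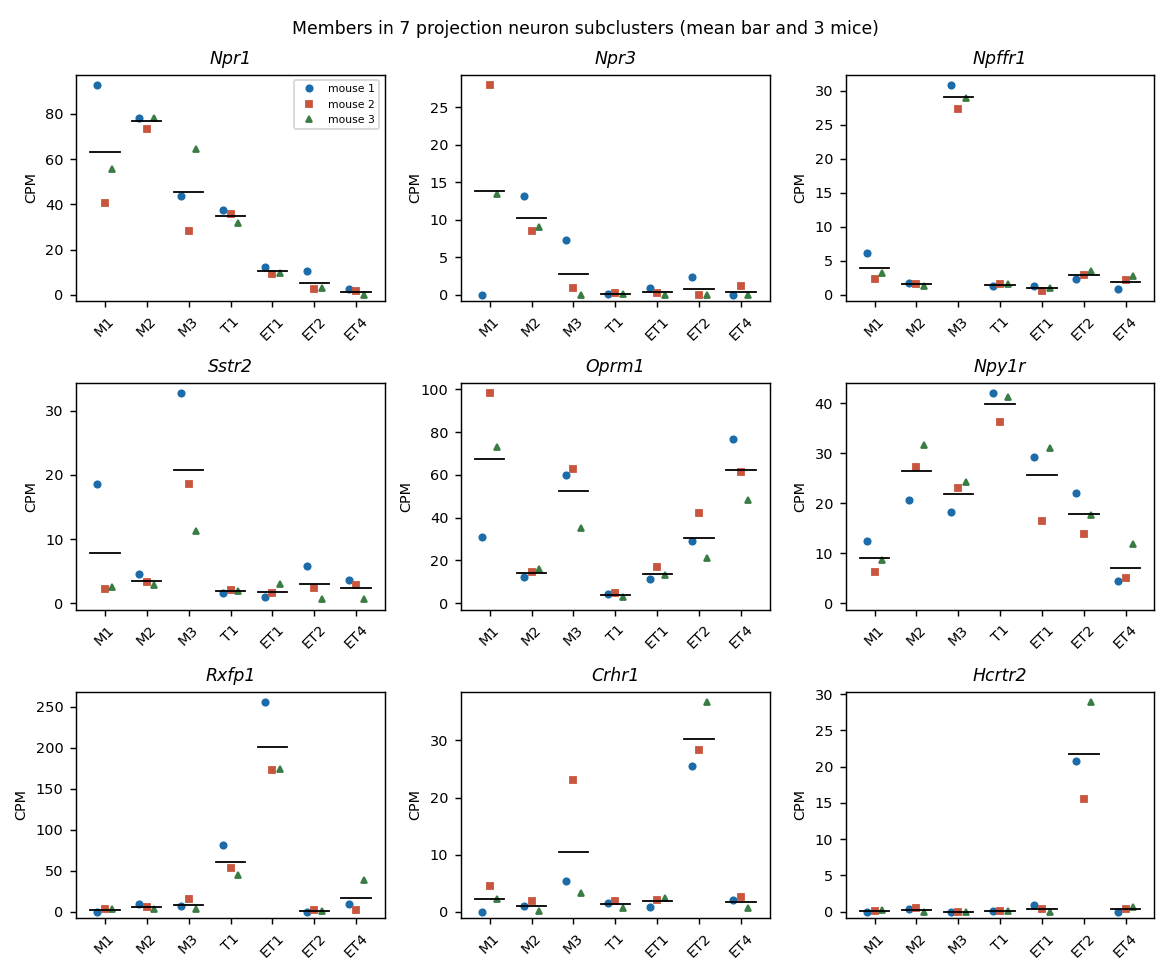
CPM (vertical axes) of 9 members in the 7 named projection neuron types (horizontal axes), with 1 point per mouse and a bar at the mean of 3 mice. Npr1 and Npr3 are high in M1 and M2, Npffr1 in M3, Rxfp1 in ET1 and T1, and Crhr1 and Hcrtr2 in ET2, while Oprm1 is high in M1, M3 and ET4 and lowest in T1.

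Rxfp1 and Npy5r were highest in T1 and ET1, and Npy1r in T1. Rxfp1 measured 256, 173 and 174 CPM in ET1 and 81.6, 53.5 and 45.4 CPM in T1. The study used this gene to describe ET1 on these samples and it is a leading gene of the subcluster, so its level there is a description. In T1 it was higher than the mean of the other types by 2.73 ± 0.31 (adjusted p = 7.33e-08), although ET1 is among these. After thinning, 26.5% of ET1 nuclei held an Rxfp1 UMI and 8.32% of T1 nuclei (61.2% and 22.9% before), against 0.236% of microglia-like nuclei (1.39% before). ET4 varied between mice, at 9.17, 2.74 and 39.1 CPM. In the clusters, Rxfp1 was highest in clusters 4 and 2, at 125, 72.5 and 100 CPM (5.24 ± 0.25, adjusted p = 3.95e-25) and 79.1, 50.3 and 42.9 CPM (4.55 ± 0.26, adjusted p = 5.05e-22). It was also called in inhibitory cluster 6, at 14.1, 6.24 and 20.4 CPM (2.01 ± 0.40, adjusted p = 9.19e-05).

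Npy1r was at 42.2, 36.2 and 41.4 CPM in T1 (1.55 ± 0.16, adjusted p = 1.84e-08), and the next type, M2, had 20.6, 27.3 and 31.6 CPM. Npy5r, another Gi-coupled neuropeptide Y receptor, was at 8.99, 6.66 and 9.32 CPM in T1 (1.66 ± 0.28, adjusted p = 3.75e-05) and at 9.42, 6.09 and 7.77 CPM in ET1 (1.44 ± 0.34, adjusted p = 0.00248). The ET1 call was lost without mouse 2. Pth1r was called in ET1 as well, at 10.3, 13.0 and 10.2 CPM (1.30 ± 0.25, adjusted p = 0.000264), a call also lost without mouse 2, and T1 averaged 9.04 CPM.

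Npy1r (chr8:66697192-66706792, plus strand) and Npy5r (chr8:66679965-66688128, minus strand) are neighbours that run in opposite directions, and both were called in T1. Their RefSeq windows, at chr8:66697172-66697471 and chr8:66688045-66688344 (GRCm38.p6), are 8827 bases apart and are shown for that reason, without capitals because none of the 5 motifs searched is in them.
Npy1r: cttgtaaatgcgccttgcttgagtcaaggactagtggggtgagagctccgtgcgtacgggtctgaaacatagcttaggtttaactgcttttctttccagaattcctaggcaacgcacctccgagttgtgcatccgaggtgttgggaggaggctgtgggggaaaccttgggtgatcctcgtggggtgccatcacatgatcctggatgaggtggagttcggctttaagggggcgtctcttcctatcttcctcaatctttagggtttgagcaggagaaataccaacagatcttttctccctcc
Npy5r: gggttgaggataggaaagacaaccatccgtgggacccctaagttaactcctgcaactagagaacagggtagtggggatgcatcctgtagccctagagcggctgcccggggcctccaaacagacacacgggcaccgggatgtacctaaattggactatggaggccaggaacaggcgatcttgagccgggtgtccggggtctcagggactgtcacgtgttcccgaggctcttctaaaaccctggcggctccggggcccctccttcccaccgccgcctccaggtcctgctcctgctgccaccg
T1 was the type with the highest mean of both, 39.9 CPM of Npy1r and 8.33 CPM of Npy5r. By mean CPM the lowest type differed, as Npy1r was lowest in ET4 at 7.07 CPM and Npy5r in M1 at 0.904 CPM. In the fit Npy5r was called lower in M1 (-1.48 ± 0.47, adjusted p = 0.021) and in ET2 (-1.57 ± 0.57, adjusted p = 0.0444). M1 and ET2 cannot be ordered within these errors.

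ET2 held the most members called higher. Hcrtr2 measured 20.8, 15.5 and 28.9 CPM in ET2, while no other type averaged above 0.409 CPM and M3 had no UMI (6.83 ± 0.41 in the fit, adjusted p = 2.71e-12). Hcrtr2 passed the filter on low counts through the ET2 libraries, so its call there was favoured in advance and is a description. Thinned to 2000 UMIs, 3.45% of ET2 nuclei held a Hcrtr2 UMI (8.03% before), and no microglia-like nucleus did. The glia-like clusters measured 0 to 5.06 CPM of Hcrtr2, below each mouse of ET2. Crhr1 was at 25.5, 28.4 and 36.7 CPM in ET2 (3.52 ± 0.34, adjusted p = 4.22e-09). The next type, M3, had 5.45, 23.0 and 3.22 CPM, and glia-like clusters had 6.67 to 16.3 CPM, below each mouse of ET2. Ntsr1 was called in ET2 from 13 UMIs, at 0, 3.10 and 0.705 CPM (2.91 ± 0.77, adjusted p = 0.00585), and the call was lost with DESeq2. The inhibitory markers summed to 539 CPM in ET2, the highest of the 7 types. In the other ET2 calls (Cckbr, Npffr2, Oprd1, Prokr2 and Tacr1) log2 fold changes ran from 1.45 to 2.14, and the part of the marker RNA in them was not tested.

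The RefSeq windows of Hcrtr2 (minus strand, chr9:76323574-76323873) and Crhr1 (plus strand, chr11:104132531-104132830) on GRCm38.p6 are shown for the pair with the largest log2 fold changes in ET2. The Crhr1 window lies wholly before the start of the gene as annotated, at base 104132855. Capitals mark a GC box.
Hcrtr2: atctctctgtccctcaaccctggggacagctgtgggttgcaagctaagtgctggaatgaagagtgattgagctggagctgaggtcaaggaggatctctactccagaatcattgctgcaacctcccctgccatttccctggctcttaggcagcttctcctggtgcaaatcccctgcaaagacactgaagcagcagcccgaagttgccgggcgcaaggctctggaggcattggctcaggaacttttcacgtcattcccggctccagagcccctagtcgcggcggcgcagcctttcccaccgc
Crhr1: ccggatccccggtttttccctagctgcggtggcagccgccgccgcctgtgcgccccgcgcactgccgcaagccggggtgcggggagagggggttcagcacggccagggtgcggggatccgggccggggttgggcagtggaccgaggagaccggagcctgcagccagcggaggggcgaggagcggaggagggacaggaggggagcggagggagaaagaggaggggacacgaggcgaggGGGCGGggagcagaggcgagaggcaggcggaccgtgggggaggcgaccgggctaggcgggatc
Crhr1 holds 1 GC box. Neither window holds the Ebf palindrome or TAATTA, which are in 0.914% and 5.31% of all windows. Most windows lack them, so their absence here is a description of letters only. The gene body of Hcrtr2 (chr9:76225880-76323856) overlaps Gm27234 on the opposite strand.

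In ET4, Oprm1, Oprd1 and Cckbr were called higher. Oprm1 measured 77.0, 61.3 and 48.2 CPM in ET4 (1.38 ± 0.18, adjusted p = 4.23e-07), and M1, at 30.9, 98.2 and 73.1 CPM, and M3, at 59.9, 62.7 and 35.4 CPM, overlapped with it. Both were called as well, M1 by 1.95 ± 0.17 (adjusted p = 1.4e-09) and M3 by 1.03 ± 0.24 (adjusted p = 0.00253, lost without mouse 1). T1 was far lower, at 4.09, 4.89 and 2.88 CPM, and fell by 2.98 ± 0.23 against the other types (adjusted p = 1.24e-10). T1 lies under the 31.2 CPM of the lowest glia-like cluster, while ET4 in 2 of 3 mice lies above the 57.5 CPM of the highest. Oprd1 was at 6.78, 4.62 and 1.40 CPM in ET4 (1.62 ± 0.46, adjusted p = 0.00584), below the glia-like 7.10 to 11.4 CPM, and its call was lost without mouse 1. ET2 was at 4.63, 5.94 and 4.23 CPM of Oprd1 and was called too. Oprl1 was not called in ET4, and Oprk1 not tested between types. Cckbr was at 10.8, 9.24 and 4.19 CPM (1.34 ± 0.30, adjusted p = 0.00081), within the glia-like 3.67 to 12.3 CPM, and ET2 was higher at 15.0, 15.2 and 9.17 CPM.

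The mean of the 3 mitral types against that of the 4 tufted types gave 6 members higher and 4 lower of 24, beside 5.53% and 3.81% of all genes, with medians of 0.16 and -0.03. Higher in mitral types were Npr3 (4.48 ± 0.75, adjusted p = 4.02e-05), Npr1 (3.03 ± 0.18, adjusted p = 7.13e-13), Ntsr1 (2.60 ± 0.88, adjusted p = 0.0283), Npffr1 (1.62 ± 0.23, adjusted p = 4.69e-06), Sstr2 (1.42 ± 0.29, adjusted p = 0.000461) and Oprm1 (1.08 ± 0.15, adjusted p = 2.04e-06). For Npffr1 and Sstr2 the mean is led by M3, and for Ntsr1 by M1, so these are differences of 1 type as much as of a class. Ntsr1 lost its call without mouse 3, as did Oprm1. Lower in mitral types were Hcrtr2 (-2.73 ± 0.99, adjusted p = 0.0403), Tacr3 (-2.17 ± 0.74, adjusted p = 0.0304), Rxfp1 (-1.93 ± 0.51, adjusted p = 0.00464) and Cckbr (-1.19 ± 0.28, adjusted p = 0.00169). Hcrtr2 and Tacr3 have no UMI in M3. For Tacr3, M2 averaged 2.80 CPM, within the 1.57 to 2.99 CPM of the tufted types. M1 averaged 3.19 CPM, but its 6.19 CPM in mouse 1 rests on 1 UMI. Mice 2 and 3 of M1 were at 1.20 and 2.19 CPM, so M1 cannot be placed above or below the tufted types. The calls of Hcrtr2 and Tacr3 were lost with DESeq2 and without the filter on low counts. Rxfp1 and Cckbr lost theirs without mouse 2. The tufted mean of Hcrtr2 is that of ET2, with every other type at 0.409 CPM or less. For Rxfp1 tufted ET2, at 1.10 CPM, was the lowest of the 7 types, under M1 at 2.30, M2 at 6.21 and M3 at 8.50 CPM. Even Npr1 did not split the types into separate blocks, since T1 overlapped with M3.

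Peptides, coupling partners and peptidases were listed to set beside the receptors. Of 44 peptide precursors, 26 could be tested between projection and inhibitory neurons, with 5 higher and 11 lower, beside 15.4% and 13.9% of all genes. Cck rose by a log2 fold change of 2.28 ± 0.20 and Adcyap1, the PACAP gene, by 3.34 ± 0.22, while Penk, the enkephalin precursor, fell by 3.66 ± 0.49, Vip by 3.56 ± 0.51 and Tac1, the substance P precursor, by 3.14 ± 0.53. For PACAP, precursor and receptor thus lay on opposite sides, as Adcyap1 was higher and Adcyap1r1 lower in projection neurons. For enkephalin, both Penk and its receptors Oprd1 and Oprm1 were higher in inhibitory neurons. Of 15 partners, 3 rose and 5 fell. Arrb1, an arrestin that ends receptor signalling, rose by 1.95 ± 0.11, and Ramp3, a partner of Calcrl, fell by 3.36 ± 0.31. Of 11 peptidases, 10 were tested, with 2 higher and 2 lower.

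Between mitral and tufted types, 2 peptides were higher and 4 lower of 20 tested, beside 5.53% and 3.81% of all genes. Nts, the neurotensin precursor, rose by 3.16 ± 0.38 and Cck fell by 1.19 ± 0.13. The calls for their receptors Ntsr1 (higher) and Cckbr (lower) were lost without mouse 3 and without mouse 2, respectively. By type, Nts had its highest mean in M3, at 39.5 CPM, and Ntsr1 in M1, at 2.74 CPM. The study instead lists Nts as a gene specific to M2. Nppa, the atrial natriuretic peptide gene, fell by 1.20 ± 0.25 where Npr1 and Npr3 rose, and its highest cluster was inhibitory cluster 7, at a mean of 226 CPM. Of 14 partners 1 rose and 1 fell, and 2 of 10 peptidases fell. Between glia-like clusters and neurons, 2 of 22 peptides rose, and of 15 partners 2 rose and 2 fell, beside 9.40% and 8.10% of all genes. Ramp2, a partner that makes Calcrl an adrenomedullin receptor, rose by 2.10 ± 0.30 beside Calcrl, and both were high in unnamed cluster 18, where Ramp2 had its highest mean of 448 CPM. Of 11 peptidases, 2 fell.

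Some members had like profiles over the 21 clusters. Measured as Pearson's r of log2(mean CPM + 1), Npffr2 and Vipr2 were each other's closest member (r = 0.89), as were Cckbr and Crhr1 (r = 0.77), Oprk1 and Vipr1 (r = 0.72), Npr2 and Oprl1 (r = 0.68) and Hcrtr2 and Pth2r (r = 0.53). Oprd1 and Tacr1 were closest to Vipr2, at r = 0.84 and r = 0.83. Npr1 was the least alike of all to Adcyap1r1 (r = -0.84). The 21 points share 3 libraries, depth and the inhibitory RNA described above, so these are descriptions without a test. In annotation, 10 members overlap a gene on the opposite strand, including Npr1 (Gm16048), Oprm1 (Gm10945 and Ipcef1), Pth1r (Myl3), Sstr2 (Slc39a11) and Vipr2 (Gm20658), and none overlaps a gene on its own strand. Whether reads were counted by strand, and whether intronic reads were included, is not given in the sources used here.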

How the data were processed

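Olfactory bulb nuclei of 3 mice were measured, 1 library per mouse. Deposited per mouse are unnormalised UMI counts for each gene in each barcode, obtained by the authors by aligning to GRCm38/mm10 in Cell Ranger, whose version the file headers give as 3.0.2. The annotation version is not given in the sources used here. A deposited table lists the 31703 retained nuclei with cluster, subcluster and the percent of mitochondrial UMIs that the authors computed. The study removed nuclei under 1000 genes or above 5% mitochondrial UMIs, merged mice by canonical correlation analysis and clustered them in Seurat. The other 6 numeric columns were not used. Doublets were not called here; the sort gated on single nuclei.

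The members and all lists were chosen with earlier results of these data known. Clusters were named where at least 3 markers of a class were carried, that is, at 25% or more of the highest cluster (50% for subclusters). Cluster 18 was left unnamed after its leading genes had been seen. Leading genes are the 10 with the largest ratio to the mean of the other groups, with 5 CPM added to both.

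Counts were summed per mouse and group with at least 10 nuclei in each mouse, and tested with edgeR 4.0.16 in R 4.3.3 (filterByExpr, TMM, quasi-likelihood test, Benjamini-Hochberg over all genes tested, no covariate). A gene high in 1 group alone passes this filter through that group, so its call there is favoured in advance. The study tested single nuclei instead. A call needed an adjusted p below 0.05 with a fold change beyond 1 on the log2 scale in either direction, or the adjusted p alone in tests of any difference. The SE was taken as the size of the log2 fold change over the root of its F statistic. TMM factors were not applied to CPM. Shares are given as found and after thinning nuclei to 2000 UMIs, which left out 97 shallower nuclei. Named with full statistics were up to 3 members called higher per type, 2 per cluster at 10 CPM or more, and 5 per direction elsewhere, by log2 fold change. Gene positions are from GENCODE on GRCm38 and promoter windows from RefSeq (GRCm38.p6).

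The mouse pairs the libraries by design, since groups come from the same animals. Deviations from type means correlated with a mean r of 0.108 within a mouse (63 pairs) and -0.0535 between mice (126 pairs). Such deviations cancel over the mice of a type, so the value between mice largely follows from the other and adds nothing to it. The mice shared 39, 8 and 35 barcode sequences by pair. Counts were also simulated with 200 genes changed by a log2 fold of 2. They were drawn independently, with otherwise equal gene shares in all groups and no effect of the mouse, unlike these data. Of 196 changed genes that passed the filter, the test recovered 100% of higher and 99% of lower ones for T1 against other types (14020 genes tested). For projection against inhibitory sums these were 96% and 94.5% of 191 (17722 tested). For cluster 7 against others they were 97.8% and 81.7% of 182 (14695 tested). Recovery under the pairing and group differences of these data was not measured. Alternatives were DESeq2 1.42.0, RLE size factors, no filter on low counts, nuclei with at least 1500 genes, all subclusters, the mouse as a block and leaving out each mouse.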

Additional observations from a re-analysis of the deposited data

Results flagged for a closer look

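The 4 values here come from groups that were not compared as groups in the main fits, each above the limit that 3 counts over its UMIs allow. Nuclei of subclusters 2, 8 and 9 are also part of the projection neuron-like clusters, which were tested. In unnamed cluster 21, with 103 nuclei, Adcyap1r1 had a mean of 109.0 CPM (143.0, 91.5 and 93.7 CPM in mice 1, 2 and 3, limit 8.12 CPM), and Vipr2 99.0 CPM. In unnamed subcluster 2, with 943 nuclei, Oprm1 had a mean of 91.2 CPM (69.2, 102.0 and 102.0 CPM, limit 0.144 CPM). This subcluster also carried Gad1 and Slc32a1, inhibitory markers. In unnamed subcluster 8, with 126 nuclei, Oprm1 had a mean of 35.6 CPM (26.5, 36.0 and 44.3 CPM, limit 1.2 CPM), beside Prokr2 at 16.5 CPM. In periglomerular-like subcluster 9, with 89 nuclei, Oprm1 had a mean of 41.9 CPM (24.8, 42.8 and 58.1 CPM, limit 1.51 CPM), beside Crhr1 at 38.4 CPM. The Oprm1 values of subclusters 8 and 9 lie within the 31.2 to 57.5 CPM of the glia-like clusters. Subclusters 2 and 8 entered the alternative fit over all subclusters.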

How the results depend on the processing

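No value given with full statistics by the naming rule changed sign in any setting run. One call outside these, also given above, did: Hcrtr2 in oligodendrocyte-like cluster 16 without mouse 2. Of the counts recomputed, which are those over all clusters, all types or a class, these moved by over 1.5 times. Cluster pairs called lower, 56 of 672, came to between 32 and 44 with 1 mouse left out (34 without mouse 1, 32 without mouse 2). Type pairs called lower, 23 of 168, came to between 11 and 22 (15 without mouse 1, 11 without mouse 2, with 126 pairs tested). Counts of single types were not recomputed, but 2 of the 3 calls in ET1 were lost without mouse 2. Members lower in mitral types, 4 of 24, came to 2 with DESeq2, 2 without the filter on low counts, and between 0 and 3 with 1 mouse left out. The 0, from edgeR without mouse 2, is of 18 members tested, 8 of which had an unadjusted p under 0.05. Members higher in glia-like clusters, 2 of 32, came to 4 with DESeq2, and those lower, 3, to between 2 and 5 with 1 mouse left out (5 without mouse 2). The cause was not tested. With the mouse as a block, 23 instead of 21 of 24 members differed between types, gaining Crhbp and Oprl1, 29 instead of 28 of 32 between inhibitory clusters, gaining Npr2, 65 instead of 56 cluster pairs were lower, type pairs came to 35 higher and 27 lower instead of 34 and 23, and 1 cluster call was lost, Cckbr in cluster 15. Of single values given with full statistics by the naming rule, 79 of 79 kept their call with the block and with RLE size factors, 74 with DESeq2, and with 1 mouse left out 215 values kept it and 16 did not. RLE factors shifted the median of all genes by over 0.1 in clusters 0 (-0.124), 1 (-0.105), 3 (-0.128), 18 (0.181), 19 (0.121) and 20 (0.123) and between glia and neurons (0.118). The highest cluster was the same in 25, 24 and 24 of 28 members without mouse 1, 2 or 3. Low UMI numbers limit the 8 members under 50 UMIs, and values near those of glia-like clusters cannot be told apart from RNA of other cells.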
